A study of Mus musculus with 10 samples.

Results

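The 7 genes described here encode the enzymes that make and destroy prostaglandins: the cyclooxygenases Ptgs1 and Ptgs2, the terminal synthases Ptgds, Ptges, Ptges2 and Ptgis, and the degrading enzyme Hpgd. They were taken by name out of 55335 genes in an RNA-seq table of mouse hearts, and all 7 were found. The family was chosen by the FPKM of the same 10 samples, with the comparison of the groups already known. The differences between the groups are therefore given for these genes as a description, with no p. RNA was measured in hearts of wild-type male mice, 5 whose mothers were given anti-Müllerian hormone in pregnancy (PAMH) and 5 whose mothers were given phosphate-buffered saline (control, prenatal vehicle). The labels state neither the age of the males nor the dose, and they do not link samples to mothers or litters, so the spread between samples may be partly technical or shared by littermates.

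Prostaglandins are short-lived lipid signals made from arachidonic acid, which phospholipases release from membranes. A cyclooxygenase converts it to prostaglandin H, and a terminal synthase turns this intermediate into prostaglandin D, E, F, prostacyclin or thromboxane, each with receptors of its own. In heart and vessels prostacyclin and prostaglandin E relax vascular muscle, thromboxane constricts it, and prostaglandin D is made by a secreted lipocalin that also carries retinoids and thyroid hormone. Uptake into cells and oxidation by Hpgd end the signal.

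Values are FPKM, read fragments scaled to transcript length and to the mapped fragments of the sample, so levels of different genes can be compared. The FPKM of a sample summed to between 654350 and 717453, between 16113 and 21097 genes had a value above 0, and the read depth is unknown. PAMH replicate 4 had the fewest genes above 0 and the highest hemoglobin and erythroid marker sum, 863 FPKM against 97.3 to 437 FPKM in the other 9 samples. Of the cardiomyocyte genes that mark the labelled tissue Myh6 was between 1198 and 1861 FPKM in the 10 samples. Of the atrial markers Myl7 was listed at 0 in 8 samples and at 1.02 and 0.962 FPKM in PAMH replicates 3 and 5. Bmp10 was listed at 0 in 9 samples and at 0.0502 FPKM in PAMH replicate 5. Sln was above 0 only in control replicate 5, at 0.0394 FPKM. Myl4, Nr2f2 and Dkk3 had at most 0.306, 0.696 and 0.469 FPKM. Nppa, on the same list, was high in all samples, with 46.5 to 129 FPKM in control and 78.4 to 217 FPKM in PAMH hearts. These ranges overlapped. In level Nppa stood apart from the other atrial markers listed.

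Of the 7 genes 5 averaged 1 FPKM or more across all samples and entered the fit across all genes (limma on log2(FPKM + 1), adjusted p under 0.05 taken as a call), while Ptges and Ptgs2 did not. Of these 5 genes Ptgds and Ptges2 were among the genes called higher in PAMH hearts, and none was called lower. Over all 9439 genes tested 4.95% were called higher (467 genes) and 1.24% lower (117 genes). The genes called higher were 79.97% of all calls, but 53.1% with median ratio scaling, 48.8% with quantile normalization and 51.7% with the mitochondrial genes left out. The values of the groups did not overlap for 3 of the 5 genes, Ptgds, Ptges2 and Ptgis, and for 8.44% of all genes tested. The median log2 fold change was 0.32 over the 5 genes and 0.07 over all tested genes. Since the choice of the family used this contrast, nothing is read from these counts.

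**Figure D1:**
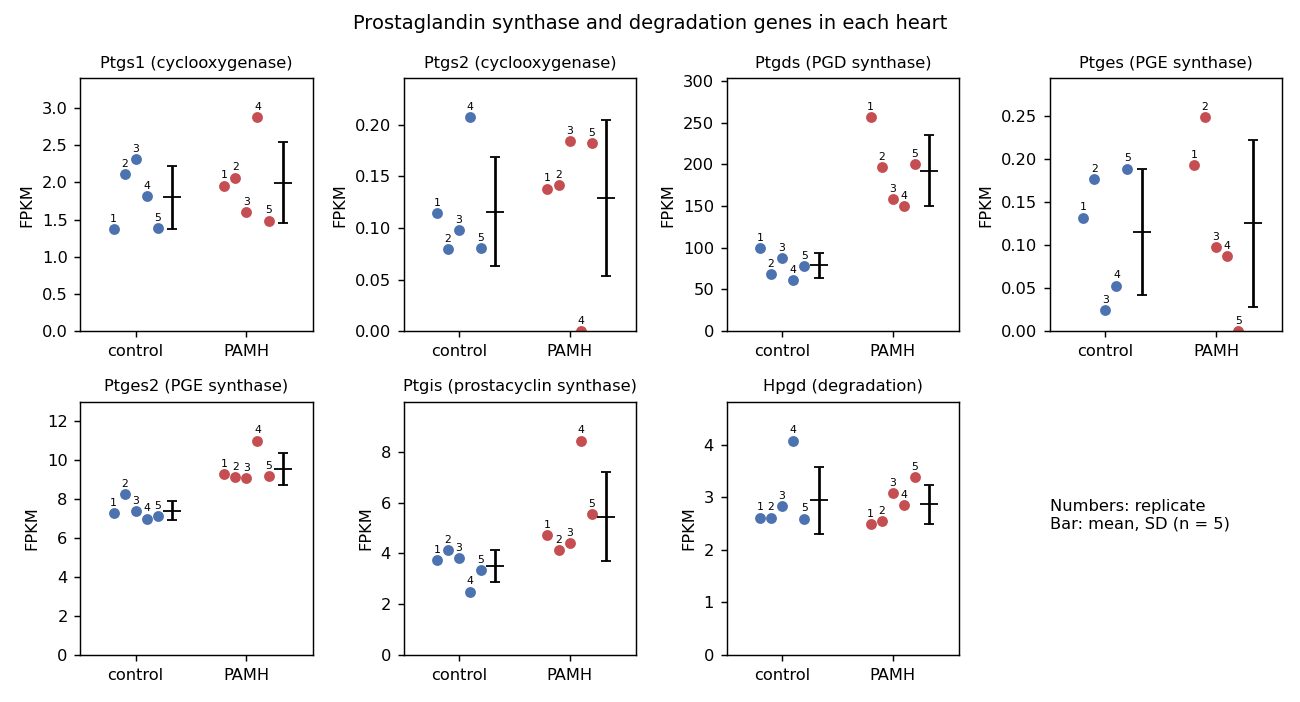
FPKM of the 7 genes (vertical axes, linear and starting at 0, with a range of their own for each gene) in 5 control (blue) and 5 PAMH hearts (red), each point numbered by replicate, with the mean and SD of each group as a bar. The PAMH values of Ptgds lie between 149.7 and 257 FPKM, above all control values of 61.5 to 99.2 FPKM, and those of Ptgs1, Ptgs2, Ptges and Hpgd overlap the control values.

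Ptgds, the lipocalin-type prostaglandin D synthase, had the highest level of the 7 genes in every sample. It lies on chromosome 2, from 25466709 to 25470046 on the minus strand (GRCm38), with 5 annotated transcripts. The sequence around its start is shown because Ptgds had the largest difference, beside those of Ptges2, which was also called higher, and of the inducible cyclooxygenase gene Ptgs2, which was near 0. Each runs 5′ to 3′ on the strand of the gene, from 250 bases before to 50 bases after the start that RefSeq gives on GRCm38.p6. For Ptgds this start differs from that of the span given above. The whole Ptgds window, with its bases before the RefSeq start, lies inside that span. The capitals mark matches, on either strand, to 8 motifs. These were the TATA box with the letters TATAAA, the GC box with the letters GGGCGG, the pentamer CCAAT that gives its box the name, the E-box with the letters CACGTG, the AP-1 site with the letters TGANTCA, the cAMP response element with the letters TGACGTCA, the D-box with the letters TTATGTAA, and the NF-kB site with the letters GGGNNTTCC.
Ptgds, chr2:25469700-25469999, minus strand: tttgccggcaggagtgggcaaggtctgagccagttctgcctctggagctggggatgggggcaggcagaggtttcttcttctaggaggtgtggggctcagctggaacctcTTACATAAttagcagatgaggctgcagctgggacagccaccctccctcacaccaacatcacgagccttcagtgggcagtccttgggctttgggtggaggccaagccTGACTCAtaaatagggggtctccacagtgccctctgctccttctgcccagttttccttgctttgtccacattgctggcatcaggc
Ptges2, chr2:32395640-32395939, plus strand: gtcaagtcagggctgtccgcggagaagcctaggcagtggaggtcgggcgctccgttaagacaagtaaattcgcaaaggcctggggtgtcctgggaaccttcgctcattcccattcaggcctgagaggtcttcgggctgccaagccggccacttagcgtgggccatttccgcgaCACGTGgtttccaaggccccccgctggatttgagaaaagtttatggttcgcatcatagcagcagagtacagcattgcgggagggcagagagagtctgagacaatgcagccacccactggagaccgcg
Ptgs2, chr1:150099781-150100080, plus strand: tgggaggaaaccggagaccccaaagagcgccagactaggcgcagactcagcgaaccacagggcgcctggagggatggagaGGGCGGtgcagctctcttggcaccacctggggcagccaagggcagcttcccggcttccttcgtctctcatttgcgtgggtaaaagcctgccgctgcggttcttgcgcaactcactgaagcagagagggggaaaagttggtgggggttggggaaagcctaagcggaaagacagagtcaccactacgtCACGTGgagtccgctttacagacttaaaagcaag

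The Ptgds window held a D-box letter match, TTACATAA, from -141 to -134 relative to the start, and an AP-1 match, TGACTCA, from -35 to -29. Such matches occurred in 0.938% and 7.81% of 32851 windows of the same length in the RefSeq table. It held no match to TATAAA, which 13.6% of windows had. The Ptges2 window had an E-box match from -77 to -72 and the Ptgs2 window had one from 17 to 22, against 7.15% of all windows. The Ptgs2 window also held a GC box match (35.7% of windows). No matches overlapped one another in these windows. The GC content was 57.7%, 58.7% and 59.3% for Ptgds, Ptges2 and Ptgs2, but the number of CpG dinucleotides was 2, 18 and 16 where the median window had 7. A letter match is not evidence of binding, and no binding was measured. The table held windows for 6 of the 7 genes, all except Ptgis.

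The cyclooxygenases, which begin the pathway, were low. Ptgs1, the constitutive form (chromosome 2, 36230426 to 36252272), had 1.37, 2.11, 2.32, 1.81 and 1.39 FPKM in control replicates 1 to 5 and 1.96, 2.06, 1.596, 2.88 and 1.49 FPKM in PAMH replicates 1 to 5. The groups overlapped, and the highest value was that of PAMH replicate 4. Its means were 1.80 ± 0.423 and 1.995 ± 0.548 FPKM (SD, n = 5 each), with a log2 fold change of 0.09 (SE 0.13) that was -0.01 without PAMH replicate 4. Ptgs2, the form induced by inflammation and stress (chromosome 1, 150100031 to 150108227), had between 0.0794 and 0.208 FPKM in controls. In PAMH hearts it had 0.138, 0.141, 0.184 and 0.182 FPKM in replicates 1, 2, 3 and 5 and was listed at 0 in replicate 4. Ptgs2 was below the filter and was not tested. Ptgs1 exceeded Ptgs2 in all 10 samples.

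Ptgds had 99.2, 68.5, 87.8, 61.5 and 78.2 FPKM in control replicates 1 to 5. In PAMH replicates 1 to 5 it had 257, 197, 158, 149.7 and 200.4 FPKM. All PAMH values lay above all control values, with a gap of 50.5 FPKM between the nearest ones. The means were 79.0 ± 15.01 and 192 ± 42.5 FPKM (SD, n = 5 each), a ratio of 2.43 and a log2 fold change of 1.27 (SE 0.16). By its group mean Ptgds ranked 332nd in control and 160th in PAMH hearts among the 9439 tested genes. Relative to its mean its spread was similar in the groups, with an SD of 18.99% of the mean in control and 22.1% in PAMH hearts. Under 20 other settings of the fit, on these 10 samples or on part of them, the log2 fold change lay between 1.14 and 1.35. In bulk tissue more cells of a type and more RNA per cell cannot be told apart.

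The prostaglandin E synthases are Ptges, the inducible microsomal enzyme that works with Ptgs2, and Ptges2, a membrane-associated enzyme whose part in making prostaglandin E in living animals is uncertain. Ptges2 (chromosome 2, 32395896 to 32405772) had 7.27, 8.24, 7.37, 6.99 and 7.12 FPKM in control replicates 1 to 5 and 9.28, 9.12, 9.08, 10.98 and 9.16 FPKM in PAMH replicates 1 to 5. The groups did not overlap, and 4 of the 5 PAMH values lay within 9.08 to 9.28 FPKM. The means were 7.40 ± 0.492 and 9.52 ± 0.819 FPKM, with a log2 fold change of 0.32 (SE 0.07). Its log2 fold change lay between 0.21 and 0.37 over 20 other settings, and the call named above was lost in 10 of them, among them median ratio scaling (0.25), quantile normalization (0.21) and the mitochondrial genes left out (0.22), and without any one of control replicates 1, 3, 4 and 5 or PAMH replicate 1 (0.31 to 0.33). Ptges (chromosome 2, 30889471 to 30929863) had 0.0250 to 0.189 FPKM in controls and 0 to 0.249 FPKM in PAMH hearts, where replicate 5 was listed at 0. It was below the filter, and its groups overlapped.

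Ptgis, prostacyclin synthase (chromosome 2, 167191805 to 167240604), had 3.73, 4.12, 3.82, 2.49 and 3.33 FPKM in control replicates 1 to 5. It had 4.71, 4.12, 4.39, 8.45 and 5.57 FPKM in PAMH replicates 1 to 5. The groups met at 4.12 FPKM, where the lowest PAMH value exceeded the highest control value by 0.00069 FPKM, and PAMH replicate 4 stood highest. The means were 3.50 ± 0.631 and 5.45 ± 1.76 FPKM, with a log2 fold change of 0.49 (SE 0.16). Over 19 other settings its log2 fold change lay between 0.28 and 0.59, with 0.35 without PAMH replicate 4. On the opposite strand the non-coding gene 1110018N20Rik shares 6.08% of the exon bases of Ptgis and averaged 2.29 FPKM. It had 1.46 to 2.27 FPKM in control and 1.79 to 3.49 FPKM in PAMH hearts, with 3.42 FPKM in PAMH replicate 4. The strand setting is not given in the sources used here, so reads of this stretch cannot be assigned to a gene.

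Hpgd, which oxidizes and inactivates prostaglandins (chromosome 8, 56294585 to 56321043), had 2.61, 2.61, 2.83, 4.07 and 2.59 FPKM in control replicates 1 to 5. It had 2.49, 2.55, 3.08, 2.85 and 3.38 FPKM in PAMH replicates 1 to 5. The groups overlapped throughout and the highest value belonged to control replicate 4. The means were 2.94 ± 0.640 and 2.87 ± 0.371 FPKM, with a log2 fold change of -0.02 (SE 0.11) that was negative in 15 and positive in 4 of 19 other settings.

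By mean FPKM over all samples the order was Ptgds, Ptges2, Ptgis, Hpgd, Ptgs1, Ptgs2 and Ptges. Each of Ptgds, Ptges2 and Ptgs1 exceeded the next gene in all 10 samples. Ptgis exceeded Hpgd in 9 of 10 samples (all but control replicate 4), and Hpgd exceeded Ptgs1 in 9 of 10 (all but PAMH replicate 4). Ptgs2 exceeded Ptges in 4 of 10 samples, and these do not differ beyond their spread.

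The makeup of terminal synthase RNA was described over 9 genes, the 4 above and Hpgds, Ptges3, Tbxas1, Fam213b and Akr1b3. Ptgds held 49.2% ± 5.01 of their summed FPKM of the control hearts (SD, n = 5) and 69.6% ± 3.97 of the PAMH hearts (SD, n = 5). Its share was 43.5% to 54.6% in controls and 63.7% to 74.2% in PAMH hearts, with no overlap. The other 8 genes together had 80.4 ± 3.19 FPKM in control and 82.3 ± 5.98 FPKM in PAMH hearts, and these sums overlapped. Fam213b, a prostaglandin F synthase, held the next largest share, 26.2% ± 2.53 and 14.2% ± 1.26. Shares of one sum are tied to each other, so a larger share of Ptgds lowers the others without a change in their FPKM.

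**Figure D2:**
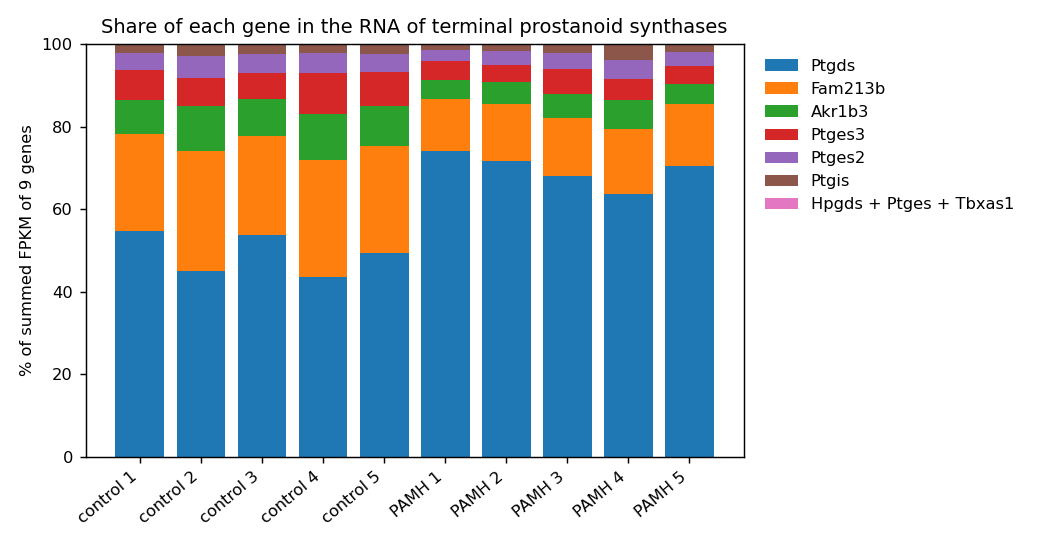
Share of each gene (percent, vertical axis) in the summed FPKM of 9 terminal prostanoid synthase genes, with one stacked bar for each of the 10 hearts. The Ptgds segment takes 43.5% to 54.6% of the control bars and 63.7% to 74.2% of the PAMH bars.

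Beyond the 7 genes, 64 other genes of prostanoid and related lipid signalling were listed, of which 34 were tested and 30 were below the filter. Of the 34 genes 5 were higher in PAMH hearts, none was lower and 29 did not pass (limma, adjusted p under 0.05 over all genes). Over all 9439 genes tested 4.95% were called higher and 1.24% lower. The list was chosen with earlier results of these data known, so no excess is read from this count. At an unadjusted p under 0.05 by limma 7 were higher and 1 lower, 23.5% of the 34 genes, against 24.0% of all genes tested. The median log2 fold change of the 34 genes was 0.06, against 0.07 over all tested genes. The count of 5 fell to 3 without any one of control replicates 1, 3, 4 and 5 and PAMH replicates 1 and 5, where Cbr2 and Ephx1 were not called.

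Of 5 tested phospholipases 1 was higher. Pla2g12a, a secreted phospholipase A of low catalytic activity, had 9.32, 10.2, 8.41, 7.74 and 9.22 FPKM in control and 16.6, 15.7, 12.5, 15.9 and 15.8 FPKM in PAMH replicates 1 to 5. The groups did not overlap, and PAMH replicate 3 was the lowest of its group. Pla2g12a rose from a mean of 8.98 ± 0.948 FPKM to one of 15.3 ± 1.61 FPKM (log2 fold change 0.71, SE 0.09, limma adjusted p = 0.00190), and its call held in all 20 other settings. Pla2g7, which inactivates platelet-activating factor, had 1.98 ± 0.318 and 1.38 ± 0.366 FPKM and did not pass (log2 fold change -0.33, limma adjusted p = 0.0895). Pla2g4a, the cytosolic phospholipase that releases arachidonic acid, had 0.0276 to 0.506 FPKM over the 10 samples and was below the filter. Pla2g4e, another cytosolic phospholipase, was below it too, at 0.272 to 0.534 FPKM in control and 0.580 to 0.909 FPKM in PAMH hearts. Its ranges did not overlap, and it was singled out after its values were seen.

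Of 7 tested genes among the other synthases and reductases 1 was higher. Cbr2, a carbonyl reductase, rose from 9.69 ± 0.571 FPKM in control to 14.1 ± 3.19 FPKM in PAMH hearts (log2 fold change 0.47, SE 0.12, limma adjusted p = 0.0370), and PAMH replicate 4 was highest at 19.4 FPKM where the rest of its group had 11.9 to 14.7 FPKM. The gene was called in 8 of 20 other settings. Ptges3, an HSP90 co-chaperone with prostaglandin E synthase activity, had 12.1 ± 1.83 and 13.2 ± 1.88 FPKM. Fam213b had 41.5 ± 2.15 and 38.6 ± 4.14 FPKM, and Akr1b3, aldose reductase, had 15.5 ± 0.684 and 15.1 ± 1.38 FPKM. None of these 3 genes passed, nor did Akr1b8, Cbr1 and Cbr3, whose log2 fold changes lay between 0.00 and 0.14. Hpgds, the prostaglandin D synthase of mast cells and other blood cells, had 0.00723 to 0.141 FPKM, so the Ptgds transcript exceeded it in every sample. Tbxas1, thromboxane synthase, had 0.175 to 0.356 FPKM. Akr1b7 and Akr1c18 were each listed at 0 in 9 of 10 samples.

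No receptor gene of a prostanoid reached the filter. Ptgdr, a receptor of prostaglandin D, was listed at 0 in all 10 samples, and Ptgdr2, the other, had at most 0.0188 FPKM. The prostacyclin receptor gene Ptgir had the highest mean of these genes over the 10 samples, 0.596 ± 0.119 FPKM in control and 0.715 ± 0.223 FPKM in PAMH hearts. The thromboxane receptor gene Tbxa2r had 0.667 ± 0.247 and 0.582 ± 0.437 FPKM. Ptgfr, the prostaglandin F receptor gene, had 0.196 to 0.507 FPKM over the 10 samples. Of the prostaglandin E receptor genes Ptger4 had 0.123 to 0.323 FPKM, Ptger1 had 0.106 to 0.263 FPKM, Ptger2 had at most 0.0714 FPKM and Ptger3 at most 0.0187 FPKM. Ptgfrn, a membrane protein that associates with the prostaglandin F receptor, was tested and did not pass at 3.64 ± 0.491 and 3.43 ± 0.288 FPKM. The nuclear receptor genes Pparg, Ppard and Ppara, whose products can bind prostanoid metabolites, did not pass either (log2 fold changes -0.08, 0.14 and -0.05).

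The tested genes of transport and further degradation (2 each) held no call. Slco2a1, which carries prostaglandins into cells, was below the filter at 0.0961 to 0.161 FPKM in control and 0.179 to 0.323 FPKM in PAMH hearts. These ranges did not overlap, and the gene was singled out after its values were seen. Ptgr2 and Zadh2, reductases that act after Hpgd, had log2 fold changes of 0.10 and 0.18.

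Branches beside the cyclooxygenases held the remaining calls, 3 of 7 tested genes. Ephx2, soluble epoxide hydrolase, which breaks down vasodilator epoxides of arachidonic acid, had 81.4, 100.6, 85.7, 77.6 and 87.0 FPKM in control and 129, 125, 105, 143 and 113 FPKM in PAMH replicates 1 to 5. The groups did not overlap. Ephx2 rose from a mean of 86.5 ± 8.73 FPKM to one of 123 ± 14.9 FPKM (log2 fold change 0.50, SE 0.10, limma adjusted p = 0.0119) and was called in all 20 other settings. Ltc4s, leukotriene C synthase, rose from 1.30 ± 0.167 FPKM in control to 2.87 ± 0.883 FPKM in PAMH hearts (log2 fold change 0.72, SE 0.14, limma adjusted p = 0.0138), called in 18 of 19 other settings. Ephx1, microsomal epoxide hydrolase, rose from 10.9 ± 1.03 FPKM in control to 14.9 ± 2.28 FPKM in PAMH hearts (log2 fold change 0.41, SE 0.10, limma adjusted p = 0.0383), called in 8 of 20. The groups of Ephx1 overlapped, at 9.49 to 12.3 FPKM in control and 11.7 to 17.9 FPKM in PAMH hearts. The lipoxygenase gene Alox5, its partner Alox5ap and Lta4h did not pass the test (log2 fold changes 0.14, 0.15 and 0.11).

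**Figure D3:**
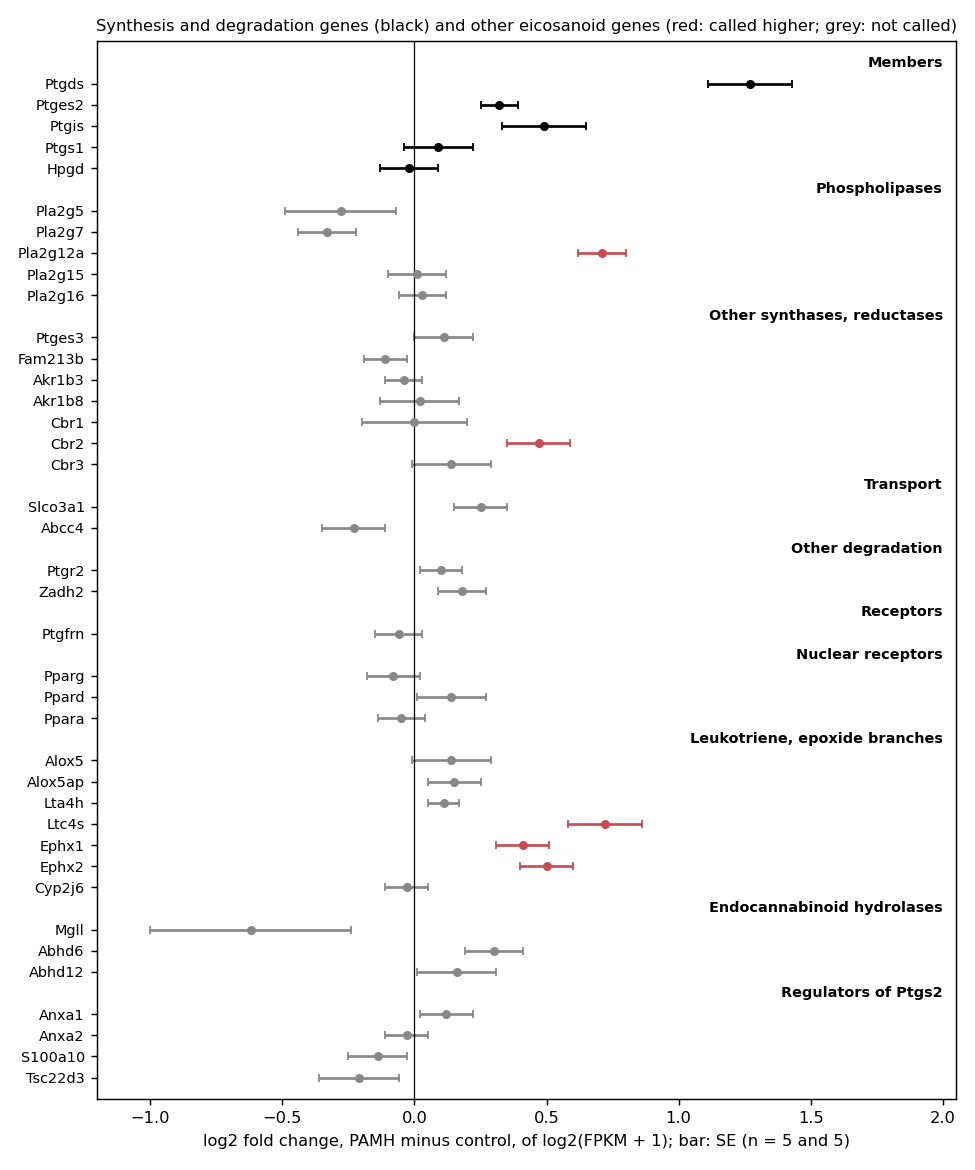
Log2 fold change of log2(FPKM + 1), PAMH minus control (horizontal axis), with its SE, for the 5 tested genes of the 7 (black) and 34 other tested genes of prostanoid and related lipid signalling, by role. Red points are the 5 other genes called higher and grey points were not called. Ptgds, at 1.27, lies farthest to the right.

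Markers of other cell types, in lists chosen with earlier results of these data known, were read beside Ptgds. Of 14 mesothelial and epicardial markers 13 had a higher mean in PAMH hearts and 8 had groups that did not overlap, all with PAMH above. Their summed level was 9.42 to 11.7 FPKM in control and 16.5 to 23.5 FPKM in PAMH hearts. Of the 4 tested ones 3 were called higher, Upk3b (0.0967 to 0.479 FPKM in control and 1.17 to 3.10 FPKM in PAMH hearts), Aldh1a2 and Rarres2, and none of the 14 was at 0 in all samples. Of all genes tested 4.95% were called higher, and 8.44% had groups that did not overlap. The second share is no matching background for the 8 markers, since most of the 14 were below the filter. Msln had 0.00353 to 0.264 FPKM in control and 0.526 to 1.63 FPKM in PAMH hearts, and Wt1 had 0.193 to 0.327 and 0.135 to 0.676 FPKM. Within the PAMH group the order differed, since the marker sum was 17.3 FPKM in replicate 1, which had the highest Ptgds, and 23.5 FPKM in replicate 5 and 23.2 FPKM in replicate 3. Without Rarres2, the most abundant marker, the sums were 4.62 to 5.89 FPKM in control and 9.60 to 15.5 FPKM in PAMH hearts, a sum added after the data were seen. Of 8 smooth muscle and pericyte markers 3 had a higher mean in PAMH hearts, and of the 7 tested ones Acta2 alone was called, from 32.1 ± 5.95 FPKM in control to 82.5 ± 20.7 FPKM in PAMH hearts. The sum of the 8 genes was 112 to 147 FPKM in control and 155 to 206 FPKM in PAMH hearts. Without Acta2 the sums overlapped, at 86.6 to 113 FPKM and 76.1 to 106 FPKM (also added after the data were seen). The part of these cells in the difference of Ptgds was not tested.

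Other marker sums overlapped between the groups. Fibroblast markers (8 genes, none called) summed to 332 to 368 FPKM in control and 284 to 402 FPKM in PAMH hearts, and Pdgfra had 1.54 to 3.02 FPKM. Endothelial markers (9 genes, 1 lower) summed to 86.2 to 103 and 76.1 to 96.5 FPKM, and Pecam1 had 13.8 to 19.6 FPKM. The gene called lower was Cldn5, with 7.51 ± 0.797 FPKM in control and 3.66 ± 0.906 FPKM in PAMH hearts and no overlap. Macrophage markers (6 genes, 1 higher) summed to 48.3 to 56.2 and 55.9 to 67.4 FPKM, and Adgre1 had 2.54 to 4.17 FPKM. The gene called higher was Cd68, with 3.38 ± 0.355 FPKM in control and 5.05 ± 0.803 FPKM in PAMH hearts and no overlap. Platelet markers (5 genes, none called) summed to 8.38 to 11.8 and 9.51 to 19.0 FPKM, nearly all of it Pf4, which had 7.92 to 17.7 FPKM. Mast cell markers (6 genes) summed to at most 3.32 FPKM, with Cpa3 at most 0.590 FPKM and Fcer1a listed at 0 throughout, and none was tested. Adipocyte markers (5 genes, none called) summed to 37.9 to 60.5 and 29.9 to 43.0 FPKM, nearly all of it Fabp4, with Adipoq at most 0.323 FPKM. Endocardial markers (4 genes, none called) summed to 10.3 to 17.97 and 7.92 to 14.2 FPKM. Ventricular cardiomyocyte markers (7 genes) held 2 called higher, Myh7 and Irx4, and atrial markers (7 genes) and erythroid markers (5 genes) held none. Of the markers of meninges and choroid plexus, tissues known for Ptgds, Slc22a6 was listed at 0 in all samples, and the 4 genes summed to at most 1.06 FPKM. Slc6a13 had 0.0239 to 0.0740 FPKM in control and was listed at 0 in all PAMH hearts. Ttr averaged 0.113 FPKM in control and 0.348 FPKM in PAMH hearts, and Foxc1 averaged 0.482 and 0.428 FPKM. The groups overlapped for Ttr and Foxc1.

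**Figure D4:**
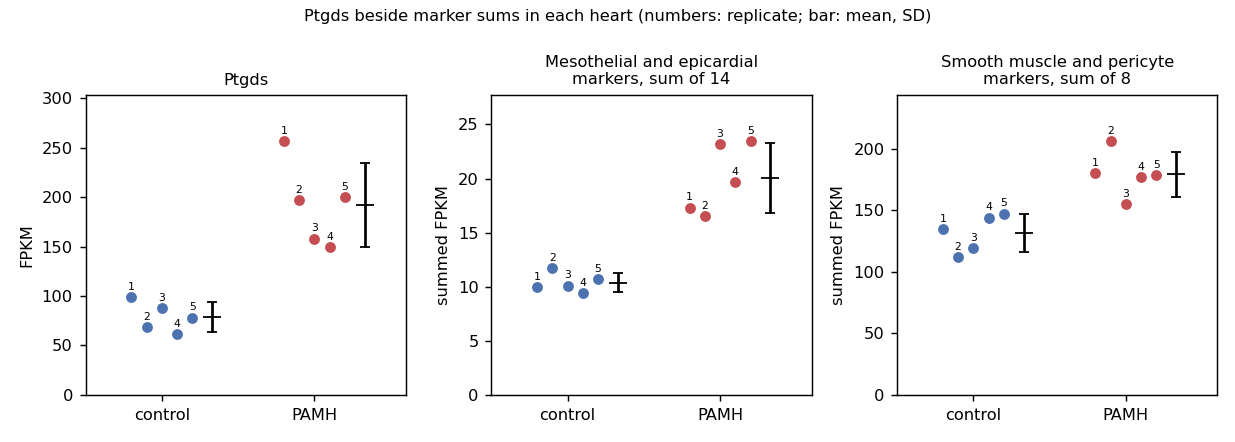
FPKM of Ptgds (left) and summed FPKM of 14 mesothelial and epicardial markers (middle) and of 8 smooth muscle and pericyte markers (right), linear axes from 0, in 5 control (blue) and 5 PAMH hearts (red) numbered by replicate, with mean and SD. In each panel all PAMH values lie above all control values, in the right panel through Acta2 alone (without it the sums are 86.6 to 113 and 76.1 to 106 FPKM), and PAMH replicate 1 has the highest Ptgds but a marker sum of 17.3 FPKM in the middle panel.

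Of the 7 genes 5 lie on chromosome 2, and their nearest tested neighbours were examined. The genes on either side of Ptgds, Paxx at 5615 bases and Fbxw5 at 30704 bases, were not called, with log2 fold changes of 0.18 and 0.22. Next to Ptges2, at 7644 bases, lies Lcn2, which encodes another secreted lipocalin. Lcn2 was called higher, from 0.563 ± 0.163 to 4.03 ± 1.36 FPKM (log2 fold change 1.64, SE 0.17). On the lower side of Ptgs2 the nearest tested gene, Rgs2, lies 6095870 bases away and was called lower, from 5.39 ± 0.746 to 3.11 ± 0.518 FPKM (log2 fold change -0.64, SE 0.11). The other tested neighbours were not called.

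The genes whose deviations from the group means most resembled those of Ptgds over the 10 samples were Gltp, Lsp1, Rab12, Spsb1, Cryzl1 and Rnf14, with Pearson coefficients of 0.915 to 0.886. They are the highest of 8691 named genes compared, and 3 of these had a coefficient of at least 0.9. Of the 6 genes Spsb1 was called, and it was lower in PAMH hearts (7.82 ± 0.700 and 5.80 ± 0.913 FPKM). By the same measure Ptges2, Ptgis, Ptgs1 and Hpgd had coefficients of -0.354, -0.122, -0.315 and -0.540 with Ptgds, all below 0. The samples share their libraries and scaling, and these coefficients are descriptions.

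**Figure D5:**
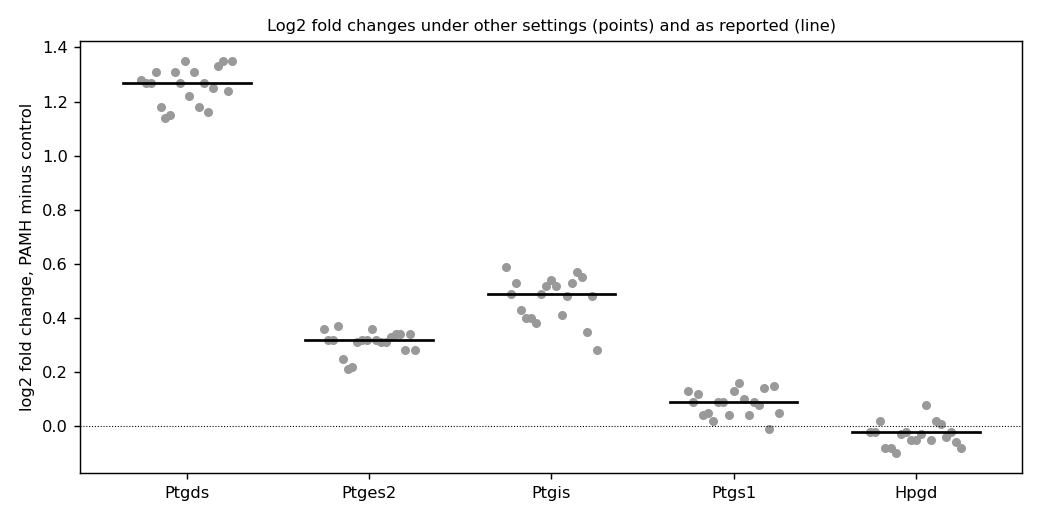
Log2 fold change, PAMH minus control (vertical axis), of the 5 tested genes of the 7 under 19 or 20 other settings of the fit (grey points) and as reported (line). Ptgds lies between 1.14 and 1.35 and Ptges2 between 0.21 and 0.37, and the points of Ptgs1 and Hpgd lie on both sides of 0.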

How the data were processed

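FPKM of 55335 Ensembl genes were deposited by the authors for all 10 samples. HISAT2 2.2.1 and the build mm10, HTSeq 0.13.5 and Trimmomatic 0.38 are named per the submitters' processing notes, without their settings. The sources used here do not say which tool gave the FPKM, or name the annotation or the strand setting. Symbols and coordinates came from GENCODE vM21 (GRCm38, which is mm10), where 55154 identifiers were found. Start windows came from RefSeq (GRCm38.p6).

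Values were transformed as log2(FPKM + 1), which understates changes of low genes. Genes averaging 1 FPKM or more (9439) were fitted with limma 3.58.1 in R 4.3.3 (group term, intensity trend, 2-sided, Benjamini-Hochberg, threshold 0.05). The fit was tested on simulated data with 5 samples in each group. It recovered 73% of log2 changes of 0.5 and 92% of log2 changes of 1, and 12 of its 177 calls were false. Changes near 0.5 can therefore be missed. The genes and lists were chosen with earlier results of these data known. All 7 genes were named, with called genes, receptors and other synthases of the pathway list, the 6 genes most like Ptgds, and defining cell markers. Other settings were a pseudocount of 0.1, no filter or a filter at 5 FPKM, 4 scalings, sample weights, a block for the replicate number, and fits that omitted samples. Figures used matplotlib 3.10.9 in Python 3.11.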

Additional observations from a re-analysis of the deposited data

Results flagged for a closer look

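In groups of 5 samples, a value was listed here when its gap to the nearest other sample exceeded 0.71 of the range of the group. Of 24 groups examined 5 had such a value, where chance gives about 1 in 20 for independent groups of normal values. These groups are genes read in the same samples, so no excess is read from the count. PAMH replicate 4 had 10.98 FPKM of Ptges2, where the rest of its group had 9.08 to 9.28 FPKM. Ptgs2 was listed at 0 FPKM in PAMH replicate 4 against 0.138 to 0.184 FPKM in the others, and it had 0.208 FPKM in control replicate 4 against 0.0794 to 0.114 FPKM in the other controls. Hpgd had 4.07 FPKM in control replicate 4 against 2.59 to 2.83 FPKM in the other controls. Pla2g12a had 12.5 FPKM in PAMH replicate 3 where the rest of its group had 15.7 to 16.6 FPKM.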

How the results depend on the processing

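The 7 genes were chosen with this comparison known, so refits of the same samples lend them no support. Their log2 fold changes lay between 1.14 and 1.35 for Ptgds, 0.21 and 0.37 for Ptges2, 0.28 and 0.59 for Ptgis, -0.01 and 0.16 for Ptgs1 and -0.10 and 0.08 for Hpgd, and the call of Ptges2 was lost in 10 of 20 settings. The counts over all tested genes, 467 higher and 117 lower, were 196 and 68 with no filter, 215 and 190 with median ratio scaling, 234 and 246 with quantile normalization, 216 and 202 with the mitochondrial genes left out, and 1038 and 176 with sample weights. With the filter at 5 FPKM 75 were lower, and without PAMH replicates 4 and 5 together 275 were higher. The sample records of these PAMH replicates do not run on from those of the other PAMH replicates. Without both, the log2 fold change was 0.28 for Ptgis, which was called in no setting, and 0.28 for Ptges2, which lost its call. Leaving out 1 sample gave 202 (control replicate 3) to 979 (PAMH replicate 3) higher and 66 (control replicate 1) to 147 (PAMH replicate 3) lower genes. The count of higher genes was 223 without control replicate 1, 232 without control replicate 4, 228 without control replicate 5, 225 without PAMH replicate 1 and 259 without PAMH replicate 5, and that of lower genes was 72, 72 and 68 without control replicates 3, 4 and 5. Of the other pathway genes 5 were higher, but 2 with no filter, 3 with median ratio scaling and with quantile normalization, and 3 to 5 with 1 sample left out. None was lower, but 1 was (Pla2g7) with the mitochondrial genes left out, with sample weights, without PAMH replicates 4 and 5 together, and 0 to 1 with 1 sample left out. The causes were not tested. The replicate numbers are shared by the groups but did not pair the samples. Deviations of same-numbered samples correlated at -0.195 to 0.16, and 1 of 5 controls correlated best with its own number. With the replicate block 175 genes were higher and 64 lower, with 3 higher among the other pathway genes, and Ptges2 was not called. The read depth is unknown, so a listing at 0 is not a measure of absence.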

Other observations

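Among enzymes that release arachidonic acid from endocannabinoids, Mgll, monoacylglycerol lipase, varied widely within both groups. It had 8.09, 25.1, 20.7, 25.01 and 9.49 FPKM in control replicates 1 to 5 and 17.1, 18.9, 6.58, 8.37 and 5.30 FPKM in PAMH replicates 1 to 5. The groups overlapped and Mgll did not pass (log2 fold change -0.62, SE 0.38, limma adjusted p = 0.345). Its relatives Abhd6 and Abhd12 had log2 fold changes of 0.30 and 0.16 and did not pass.

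Of 4 listed genes whose products are linked to the control of phospholipases or Ptgs2 none passed (limma). Anxa1 had 4.79 ± 0.733 and 5.27 ± 0.676 FPKM (SD, n = 5 each) and Tsc22d3, which glucocorticoids induce, 17.7 ± 1.85 and 15.5 ± 4.18 FPKM, with 21.8 FPKM in PAMH replicate 1. Anxa2 and S100a10, whose products form a complex at membranes, had log2 fold changes of -0.03 and -0.14.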
